A study of Mus musculus with 42 samples.

Results

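The genes described here are 10 writers and readers of methylated lysine 9 of histone H3 (H3K9), taken by symbol for their known roles. The genes were chosen by no cut-off on a measured value, but with earlier results of these data known. They were the methyltransferase genes Suv39h1, Suv39h2, Setdb1, Ehmt1 and Ehmt2, the cofactor genes Atf7ip and Trim28, and the genes of the heterochromatin protein 1 (HP1) family, Cbx1, Cbx3 and Cbx5. All 10 were found among the 35275 genes of the deposited tables, and all 10 passed the filter on low counts in every fit.

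H3K9 methylation marks silent chromatin. SUV39H1 and SUV39H2 write the trimethyl mark at pericentromeric repeats, SETDB1 writes it mainly at transposable elements and other euchromatic targets, and EHMT1 (GLP) and EHMT2 (G9a) act as a heterodimer that writes the mono- and dimethyl marks. ATF7IP binds and stabilizes SETDB1, and TRIM28 (KAP1) brings SETDB1 to sites bound by KRAB zinc finger proteins. The HP1 proteins CBX5 (alpha), CBX1 (beta) and CBX3 (gamma) bind di- and trimethylated H3K9 through a chromodomain. In neurons, EHMT1 and EHMT2 are known for silencing non-neuronal genes, and loss of 1 copy of EHMT1 causes a human neurodevelopmental syndrome.

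The tissue was cerebellum of male C57BL/6 mice (C57/BL6NTac in the design text). From 3 to 6 months of age the mice ate freely (AL), fasted for 16 h of each day (IF16), or fasted for 24 h on alternate days (EOD). In the AL-R, IF16-R and EOD-R groups the same 3 months were followed by 2 months of free feeding, so that tissue was taken at 8 months. The names of the refed groups are written below with a hyphen in place of the point of the labels. Each of the 6 groups had 5 RNA-seq libraries. The labels do not say that each library came from a separate mouse, so p-values measure the spread between these libraries. No group carries an allele or agent named in the labels, and all mice ate freely until 3 months of age. The 12 samples of H3K9me3 chromatin immunoprecipitation and input were not analysed here, and the text below concerns transcript levels only. Total counts ran from 26799825 to 36167435 per library.

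The cerebellar identity of the libraries was checked with defining genes. Gabra6, a granule cell receptor subunit, ranged from 157 to 283 FPKM (fragments normalised to gene length and library total), and Pcp2, of Purkinje cells, from 62.6 to 154 FPKM. Ttr, the main product of the choroid plexus, ranged from 6.32 to 3268 FPKM, so that the dissections differed in that tissue. Libraries also differed in the slope of log2 CPM on log2 gene length, called the length gradient below. It ran from -0.158 to 0.139 in the 15 libraries of the regimens and from -0.0261 to 0.0416 in the 15 after refeeding. AL replicates 4 and 5 (-0.158 and -0.106), IF16 replicate 1 (-0.114) and EOD replicate 4 (0.139) stood apart. In bulk tissue, fewer cells of a type and less RNA per cell cannot be told apart.

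Promoters are shown for the 5 genes on which the results below turn. They are Suv39h1, which had the lowest p-value of the 10 in both comparisons of a fasting regimen with AL, the pair Ehmt2 and Trim28, whose levels correlated across libraries in both tables, and the pair Atf7ip and Cbx5, called between the control groups of different age. The bases lie directly upstream of the deposited gene start, or 36 bases further upstream for Cbx5. The bases are within 250 bases of the RefSeq start (assembly GRCm38.p6, the genome of mm10). They are written 5′ to 3′ on the gene's strand, with 3 motifs in capitals on either strand: the GC box GGGCGG, the CCAAT box CCAAT and the E-box CACGTG. The stretches are chrX:8074761-8075010 (minus strand) for Suv39h1, chr17:34898224-34898468 (plus) for Ehmt2, chr7:13023902-13024151 (plus) for Trim28, chr6:136518601-136518801 (plus) for Atf7ip and chr15:103239853-103240102 (minus) for Cbx5.
Suv39h1: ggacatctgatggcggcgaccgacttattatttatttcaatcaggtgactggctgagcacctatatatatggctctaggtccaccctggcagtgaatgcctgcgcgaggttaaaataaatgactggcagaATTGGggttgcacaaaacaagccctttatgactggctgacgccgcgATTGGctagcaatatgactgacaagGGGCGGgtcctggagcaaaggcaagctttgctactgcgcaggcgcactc
Ehmt2: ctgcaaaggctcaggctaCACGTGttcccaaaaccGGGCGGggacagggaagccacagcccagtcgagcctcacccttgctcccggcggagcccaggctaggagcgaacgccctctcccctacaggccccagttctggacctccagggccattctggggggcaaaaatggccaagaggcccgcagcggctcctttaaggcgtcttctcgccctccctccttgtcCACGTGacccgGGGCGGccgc
Trim28: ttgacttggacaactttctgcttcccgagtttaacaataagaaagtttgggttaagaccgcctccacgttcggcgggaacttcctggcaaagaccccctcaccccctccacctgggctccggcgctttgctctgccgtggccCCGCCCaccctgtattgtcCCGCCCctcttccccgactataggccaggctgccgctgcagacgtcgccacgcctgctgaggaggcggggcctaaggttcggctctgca
Atf7ip: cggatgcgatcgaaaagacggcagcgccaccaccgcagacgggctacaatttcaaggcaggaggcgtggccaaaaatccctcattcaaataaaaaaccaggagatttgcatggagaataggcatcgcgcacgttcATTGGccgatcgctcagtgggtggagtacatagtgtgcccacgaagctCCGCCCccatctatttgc
Cbx5: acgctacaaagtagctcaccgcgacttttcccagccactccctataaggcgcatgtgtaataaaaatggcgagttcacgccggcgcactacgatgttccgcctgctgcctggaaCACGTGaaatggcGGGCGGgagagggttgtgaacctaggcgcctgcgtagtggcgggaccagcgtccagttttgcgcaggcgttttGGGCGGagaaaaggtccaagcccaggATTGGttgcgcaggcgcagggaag

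Each of the 10 promoters held at least 1 GC box within the 250 bases before the RefSeq start. The same letters were found in 32.7% of all 32851 RefSeq promoters of that length and in 54.4% of the 15115 promoters of genes tested here. The E-box letters were found in 2 of the 10, with 2 copies before Ehmt2 and 1 before Cbx5, against 6.02% of all promoters and 7.75% of those of tested genes. CCAAT stood before Suv39h1 (2 copies), Setdb1, Atf7ip and Cbx5 (1 copy each), against 33.8% of all promoters and 34.5% of those of tested genes. The letters TGACGTCA, the cyclic AMP response element, stood before Suv39h2 alone among the 10 (1.55% of all promoters, 2.4% of those of tested genes), and CCGGAAG, an ETS motif, before Setdb1 alone (6.91% and 11.5%). None of the 10 held TATAAA (12.4% of all promoters, 6.75% of those of tested genes) or the NRF1 motif, a palindrome of 10 letters (0.782% and 1.44%). A match describes letters and not a bound site.

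All 10 transcripts were detected in all 30 libraries, at levels between percentiles 21.9 and 92.5 of the tested genes. The median FPKM of the 16877 genes tested in the joint fit was 5.99. Over the 30 libraries, Trim28 was the most abundant (56.1 ± 3.98 FPKM, SD, n = 30, percentile 92.5 of the tested genes). Ehmt2 (43.2 ± 2.77) and Cbx3 (43.0 ± 2.38) came next and were not ordered, with Ehmt2 the higher in 13 of 30 libraries. Cbx1 followed at 32.7 ± 2.02, Cbx5 at 15.2 ± 1.64 and Atf7ip at 13.2 ± 1.54. Ehmt1 (9.89 ± 0.583) and Setdb1 (9.72 ± 1.08) could again not be ordered, Ehmt1 being higher in 17 of 30. Suv39h1 stood at 6.31 ± 0.633 FPKM and Suv39h2 at 0.938 ± 0.134, the latter at percentile 21.9. Every other pair of neighbours kept its order in 30 of 30 libraries.

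**Figure D1:**
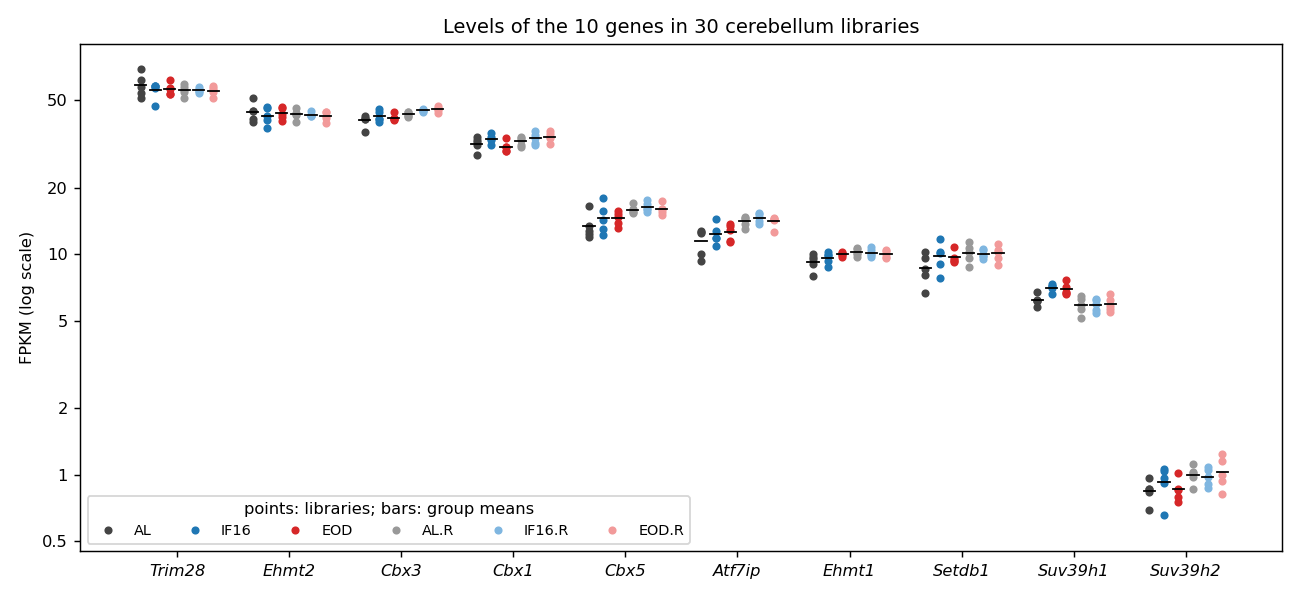
FPKM of the 10 genes on a log axis; each point is 1 library, coloured by group, and short bars are group means of 5 libraries. Trim28 lies highest (46.9 to 69.2 FPKM) and Suv39h2 lowest (0.658 to 1.24), and the spread between groups is small beside the spread between genes.

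Paralogous genes were unequal in level. Ehmt2 exceeded Ehmt1 by 4.39-fold ± 0.515 (SD, n = 30), and the ratio lay between 3.65 and 6.45 in every library. Suv39h1 exceeded Suv39h2 by 6.89-fold ± 1.40. Of the summed FPKM of the HP1 genes, Cbx3 made up 47.4% ± 1.17, Cbx1 36% ± 1.43 and Cbx5 16.7% ± 1.20. The HP1 shares were narrow in each group. Cbx3, for example, ranged over group means from 46.8% ± 1.65 (SD, n = 5) in IF16 to 47.9% ± 1.03 in EOD. Trim28 exceeded Setdb1, whose protein it recruits, by 5.88-fold ± 1.12, with a range of 4.01 to 10.4.

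Several of these genes share their locus with others. Suv39h2 (chr2:3455815-3475031, minus strand) overlaps the protein-coding gene Dclre1c on the opposite strand over 8316 bases. Suv39h2 had a mean of 131.4 counts per library and Dclre1c 227. Suv39h1 (chrX:8061171-8074760, minus strand) lies opposite the antisense gene Gm14820, which had a mean of 6.33 counts against 637.5 for Suv39h1. Setdb1 (chr3:95323525-95357202, minus strand) overlaps Cers2 over 75 bases, and Cbx1 (chr11:96789127-96808640, plus strand) holds the pseudogene Gm11517. Whether the counting used strand is not given in the sources used here, so the level of Suv39h2 above all is uncertain. Cbx3 (chr6:51470360-51483704, plus strand) has a processed copy, Cbx3-ps3, with a mean of 0.0667 counts. The other genes lie at chr2:24790769-24919609 (Ehmt1, minus strand), chr17:34898469-34914052 (Ehmt2, plus), chr6:136518802-136611038 (Atf7ip, plus), chr7:13024152-13031035 (Trim28, plus) and chr15:103191544-103239816 (Cbx5, minus), all in mm10.

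Group means of FPKM moved little for most of the 10. Trim28 ranged from 55.2 ± 2.66 (SD, n = 5) in EOD-R to 58.7 ± 7.09 in AL, and Ehmt2 from 42.3 ± 1.97 in EOD-R to 44.4 ± 4.47 in AL. Cbx1 had its lowest mean in EOD (30.7 ± 1.82) and its highest in EOD-R (34.1 ± 1.62). The groups span 2 tables that differ in age and time of collection, and AL replicates 4 and 5 stand apart in length gradient. The part of these in the group means was not tested. For 6 genes AL had the lowest mean of the 6 groups, and the share of all genes with AL lowest was not computed. These were Suv39h2 (0.843 ± 0.0997 against a highest 1.03 ± 0.171 in EOD-R), Setdb1 (8.63 ± 1.38 against 10.1 ± 1.01 in AL-R), Ehmt1 (9.25 ± 0.799 against 10.2 ± 0.426 in AL-R), Atf7ip (11.5 ± 1.66 against 14.6 ± 0.722 in IF16-R), Cbx3 (40.5 ± 2.62 against 45.6 ± 1.16 in EOD-R) and Cbx5 (13.4 ± 1.80 against 16.5 ± 0.786 in IF16-R). Suv39h1 had a different order, with its 2 highest means in IF16 (7.04 ± 0.286) and EOD (6.95 ± 0.447), 6.20 ± 0.345 in AL, and 5.87 ± 0.372 to 5.94 ± 0.477 in the 3 refed groups.

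At the end of the fasting regimens, none of the 10 genes passed the test against AL. In IF16 against AL, 0 of 10 were called at an adjusted p under 0.05 (edgeR quasi-likelihood test, Benjamini-Hochberg over 16577 genes), and 0.0483% of all tested genes were called. In EOD against AL, 0 of 10 were called, against 0.0664% of all genes. DESeq2 and limma-voom also called 0 of 10 in both. The 95% intervals of the 20 differences lay within 0.819-fold and 1.33-fold, the widest being those of Suv39h2. At an unadjusted p under 0.05, 1 of 10 genes lay in IF16 against AL, where 9.92% of all genes did, and 2 of 10 in EOD against AL, where 14.4% did. These shares are near the background, and the comparisons share the AL libraries.

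Suv39h1, which writes the trimethyl mark, was the gene with the lowest p-value among the 10 in each of these comparisons. Its CPM (counts scaled to library size by TMM, within a table) was 20.6, 17.8, 18.9, 19.7 and 19.5 in AL replicates 1 to 5. In IF16 it was 22.4, 21.8, 19.9, 22.1 and 22.9, and in EOD 23.6, 20.8, 22.03, 21.5 and 21.2. All 5 EOD libraries lay above the highest AL library, as did 4 of 5 IF16 libraries. Groups did not overlap for 2.9% of all genes in EOD against AL, and for 1 of these 10. The log2 fold change was 0.18 in IF16 (SE 0.063, unadjusted p = 0.0135, adjusted p = 0.408 by edgeR) and 0.17 in EOD (SE 0.064, unadjusted p = 0.0139, adjusted p = 0.314), a 1.13-fold difference in each. The unadjusted p stayed under 0.05 in 20 of 20 alternative settings for each regimen, while the adjusted p ranged from 0.186 to 0.699 and from 0.154 to 0.6. Its correlation with the length gradient was r = 0.176 over the 15 libraries (Pearson, permutation p = 0.53). With the 4 libraries that stand apart left out, the log2 fold changes were 0.18 and 0.19. Summed endothelial markers (5 of 5 above 1 FPKM) ran from 96.5 to 119 FPKM in AL, 69.03 to 118 in IF16 and 67.0 to 89.0 in EOD, and microglial markers (5 of 5) from 43.3 to 62.4, 39.3 to 54.4 and 37.2 to 43.1. The part of these lists in the result was not tested.

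**Figure D2:**
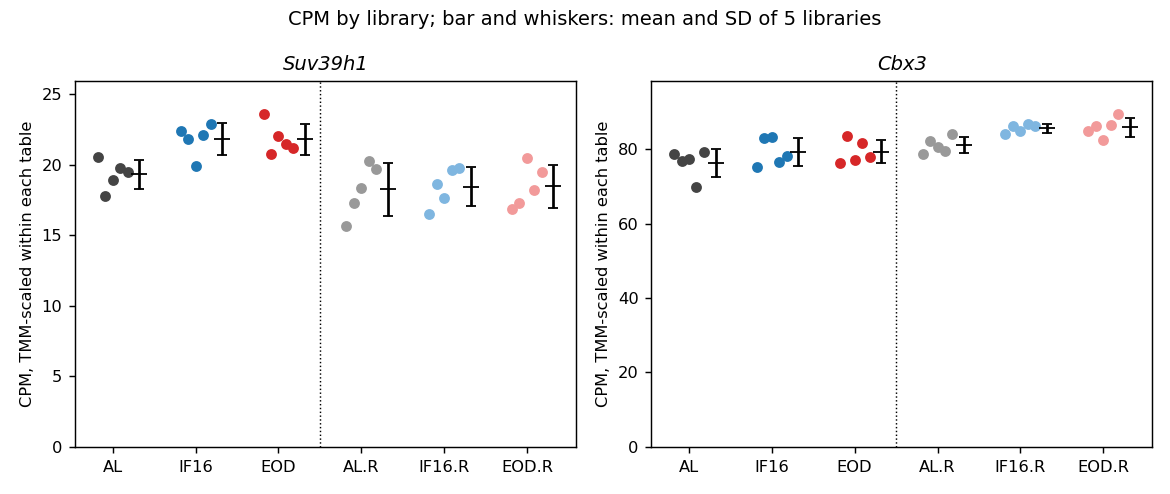
CPM of Suv39h1 (left) and Cbx3 (right) in each library by group, on axes from 0; the bar and whiskers beside each group are the mean and SD of 5 libraries, and the dotted line separates the tables of the regimens and of refeeding, which are scaled apart. Suv39h1 is at 17.8 to 20.6 in AL and 20.8 to 23.6 in EOD; Cbx3 is at 78.7 to 84.2 in AL-R and 82.5 to 89.4 in EOD-R.

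Suv39h2, the other enzyme of that pair, was at 3.04 to 4.11 CPM in AL, 2.85 to 4.48 in IF16 and 3.27 to 4.61 in EOD, and these ranges overlap. Setdb1 was at 38.9 to 57.0 CPM in AL, 44.0 to 64.4 in IF16 and 52.1 to 61.4 in EOD. Its log2 differences from AL were 0.17 (SE 0.11, adjusted p = 0.577 by edgeR) and 0.18 (SE 0.11, adjusted p = 0.394), as large as those of Suv39h1 but with a wider spread. With the length gradient in the model they were 0.098 and 0.034, and those of Suv39h1 were 0.18 and 0.19. Ehmt1 had the other unadjusted p under 0.05, in EOD against AL. It was at 47.8, 50.4, 48.9, 41.9 and 46.9 CPM in AL and at 50.2, 49.9, 51.5, 54.7 and 51.8 in EOD, where 1 AL library reaches into the EOD range. The log2 fold change of 0.13 (SE 0.061, unadjusted p = 0.0493, adjusted p = 0.346 by edgeR) became 0.050 without the 4 libraries that stand apart. Ehmt2, which encodes the partner of EHMT1, was at 157 to 213 CPM in AL, 146 to 187 in IF16 and 163 to 189 in EOD.

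The cofactors and readers had adjusted p-values of 0.418 or more against AL at the end of the regimens. Atf7ip was at 79.2 to 103 CPM in AL, 90.02 to 116 in IF16 and 93.9 to 118 in EOD. Trim28 was at 163 to 231, 148 to 190 and 173 to 202 CPM in the same groups. Of the HP1 genes, Cbx3 gave the narrowest 95% interval of the 10, with a half-width of 0.119 on the log2 scale, around 0.054 in IF16 and 0.055 in EOD. Cbx5 was at 109 to 142 CPM in AL, 108 to 154 in IF16 and 117 to 145 in EOD. In EOD against AL the log2 difference of Cbx5 was 0.13 as fitted and -0.014 with the length gradient in the model. That of Atf7ip was 0.15 as fitted and -0.028 without the 4 libraries that stand apart. EOD and IF16 were also compared with each other. There 0 of 10 genes were called against 0% of all genes, and 0 of 10 reached an unadjusted p under 0.05 against 3.62%. The log2 differences ran from -0.100 (Cbx1) to 0.081 (Ehmt1), and that of Suv39h1 was -0.00074 with a 95% interval of -0.13 to 0.13.

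**Figure D3:**
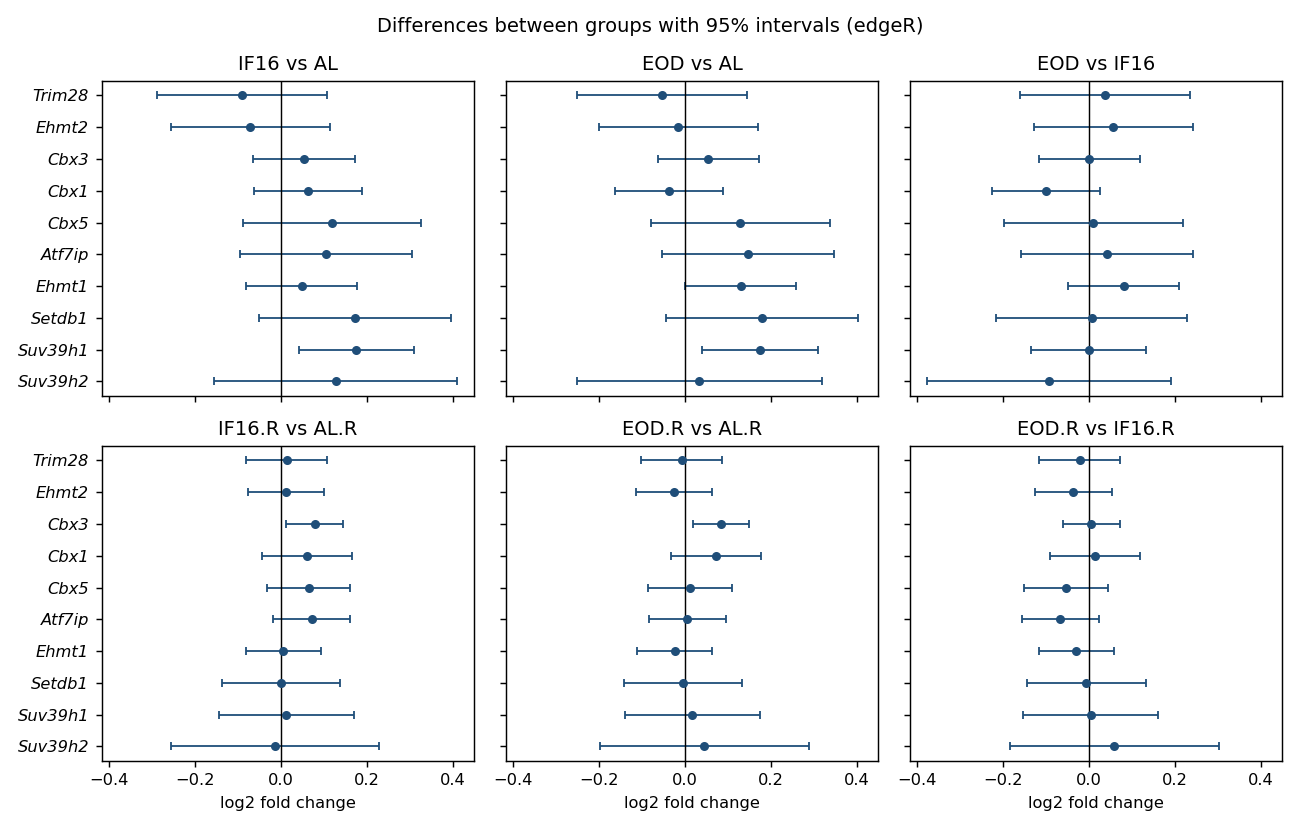
Log2 fold change of each gene (point) with its 95% interval (bar) in 6 comparisons, edgeR. Intervals of Suv39h1 lie above 0 in both upper panels against AL and those of Cbx3 in both lower panels against AL-R; no adjusted p is below 0.05 in any panel, and the refeeding panels have shorter intervals.

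After 2 months of refeeding, none of the 10 genes was called either. The counts were 0 of 10 in IF16-R against AL-R, where 0.17% of the 16444 genes tested were called, 0 of 10 in EOD-R against AL-R (0.0426%) and 0 of 10 in EOD-R against IF16-R (0.0182%). The libraries of this table varied less, with a common biological coefficient of variation of 8.05% against 14.3% at the end of the regimens. The 30 intervals lay within 0.837-fold and 1.23-fold. At an unadjusted p under 0.05 there was 1 of 10 in IF16-R (9.58% of all genes), 1 of 10 in EOD-R (8.5%) and 0 of 10 between the refed regimens (9.75%).

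Cbx3, which encodes HP1 gamma, was the gene with an unadjusted p under 0.05 in both refed groups. Its CPM was 78.7, 82.2, 80.6, 79.6 and 84.2 in AL-R. In IF16-R it was 84.1, 86.1, 84.8, 86.9 and 86.2, and in EOD-R 84.9, 86.3, 82.5, 86.6 and 89.4. AL-R replicate 5 reached into both regimen groups, and the other 4 AL-R libraries lay below all 10 of them. The log2 fold changes were 0.079 (SE 0.032, unadjusted p = 0.0224, adjusted p = 0.439 by edgeR) and 0.084 (SE 0.032, unadjusted p = 0.0157, adjusted p = 0.453), or 1.06-fold in each. They share the AL-R libraries. Over 19 alternatives, the unadjusted p stayed under 0.05 in 17 and in 18. The length gradient was at or below -0.00359 in every AL-R library and at or above 0.00465 in every IF16-R library. With the gradient in the model the IF16-R difference was 0.068 (unadjusted p = 0.155, adjusted p = 0.999 by edgeR) and the EOD-R difference 0.083 (unadjusted p = 0.0155, adjusted p = 0.401). Summed astrocyte markers (6 of 6 above 1 FPKM) ran from 544 to 611 FPKM in AL-R, 612 to 642 in IF16-R and 610 to 637 in EOD-R. Oligodendrocyte markers (5 of 5) ran from 1074 to 1166, 1107 to 1451 and 1185 to 1402 FPKM in the same groups, and red blood cell markers (4 of 5) from 11.9 to 153, 18.3 to 74 and 19.9 to 34.2. Of the 6 astrocyte genes, 2 were called higher in IF16-R against AL-R (smallest adjusted p = 0.0116 by edgeR), beside 0.17% of all genes called. In EOD-R against AL-R, 1 of 6 was called higher (adjusted p = 0.0427), beside 0.0426% of all genes. In EOD-R against AL-R, 5 of 5 red blood cell genes were lower at an unadjusted p under 0.05 (median log2 difference -1.61, smallest adjusted p = 0.24 by edgeR). The part of these lists in the result was not tested.

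No difference in Suv39h1 was detected between the refed groups. Its CPM was 15.7, 17.3, 18.3, 20.3 and 19.7 in AL-R, 16.5, 18.7, 17.6, 19.6 and 19.8 in IF16-R and 16.8, 17.3, 20.5, 18.2 and 19.5 in EOD-R, and the 3 ranges overlap. The log2 differences from AL-R were 0.013 (95% interval -0.14 to 0.17) and 0.017 (-0.14 to 0.17). Whether the difference from the controls had changed between the end of a regimen and the end of refeeding was tested by an interaction term over all 30 libraries. It was -0.16 for Suv39h1 under both regimens (SE 0.097 each, unadjusted p = 0.111 and 0.108, adjusted p = 0.755 and 0.527 by edgeR), so the change in its difference did not pass the test. Of the 10 genes, 0 were called in the IF16 interaction (0.0474% of 16877 genes) and 0 in the EOD interaction (0.0119%). Ehmt1 was the only one of the 10 with an unadjusted p under 0.05, for EOD (-0.16, SE 0.072, adjusted p = 0.474 by edgeR), where 10.3% of all genes had one. For IF16 the count was 0 of 10 against 7.21%.

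Between the control groups of 8 and 6 months, 2 of the 10 genes passed the test. AL-R was compared with AL in the joint fit; age, time of collection and table go together here and cannot be told apart. They were Atf7ip and Cbx5, both higher in AL-R, where 23.9% of all tested genes were called (11.5% higher), and none of the 10 was called lower. At an unadjusted p under 0.05 there were 4 of 10, all higher (Atf7ip, Cbx5, Ehmt1 and Setdb1), against 40% of all genes in either direction and 19.1% higher. The share of the 10 is thus near the background.

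Atf7ip, scaled over all 30 libraries, was at 104, 103, 103, 78.8 and 83.3 CPM in AL and at 117, 118, 121, 107 and 113 in AL-R. The groups did not overlap, as for 9.72% of all genes, and AL replicates 4 and 5 were the lowest. The log2 fold change was 0.29 (SE 0.076, adjusted p = 0.0122 by edgeR), a 1.22-fold difference. Cbx5 was at 143, 112, 117, 109 and 110.6 CPM in AL and 135, 139, 149, 135 and 139 in AL-R. Here AL replicate 1 lay inside the AL-R range. Its log2 fold change was 0.24 (SE 0.079, adjusted p = 0.0318), or 1.18-fold. Setdb1 (0.22, SE 0.092, adjusted p = 0.0727) and Ehmt1 (0.14, SE 0.051, adjusted p = 0.0508) missed the threshold. The differences of Suv39h1 (-0.086), Trim28 (-0.093) and Ehmt2 (-0.053) did not pass it either, with adjusted p from 0.354 to 0.592.

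Calls in this comparison moved with single libraries, for all genes as for the 10. Without AL replicate 4, 0 of 10 genes were called and 4.88% of all genes were. Atf7ip then differed by 0.22 (adjusted p = 0.0639 by edgeR) and Cbx5 by 0.20 (adjusted p = 0.127). Without AL replicate 5, 0 of 10 were called beside 7.34% of all genes, with differences of 0.25 (adjusted p = 0.0515) and 0.22 (adjusted p = 0.0978). Without AL replicate 1, 4 of 10 were called beside 36.3%, and without AL-R replicate 1, 4 of 10 beside 18.8%, with Setdb1 and Ehmt1 in addition. Over the 10 libraries left out in turn, Atf7ip was called in 8 fits and Cbx5 in 4, at differences of 0.22 to 0.33 and 0.20 to 0.33. In a fit of only AL and AL-R, Atf7ip differed by 0.29 (adjusted p = 0.0708) and Cbx5 by 0.24 (adjusted p = 0.0795), and 0.172% of all genes were called. With the 4 libraries of outlying length gradient left out, Atf7ip differed by 0.16 (adjusted p = 0.163) and Cbx5 by 0.17 (adjusted p = 0.261), and 2.37% of all genes were called. With the length gradient in the model, Atf7ip differed by 0.092 (adjusted p = 0.422) and Cbx5 by 0.047 (adjusted p = 0.789), and 1.32% of all genes were called. Marker lists moved as well. Summed Purkinje cell markers (5 of 5 above 1 FPKM) ran from 951 to 1119 FPKM in AL and 1176 to 1221 in AL-R. Oligodendrocyte markers (5 of 5) ran from 1223 to 1400 and 1074 to 1166. Microglial markers (5 of 5) ran from 43.3 to 62.4 and 36.8 to 42.6, and endothelial markers (5 of 5) from 96.5 to 119 and 72.3 to 92.7. The endothelial sum did not describe its list, in which 4 of 5 genes were higher in AL-R (median log2 difference 0.175). The other gene was called lower (-0.728). Summed choroid plexus markers (9 of 10) ran from 24.0 to 3335 FPKM in AL and 21.7 to 1582 in AL-R. Their medians were 1659 and 23.2 FPKM, and 0 of 10 genes were higher or called (median log2 difference -1.47). Red blood cell markers (4 of 5) ran from 14.8 to 79.5 and 11.9 to 153 FPKM. Of these genes 3 of 5 were called higher (median log2 difference 1.18). The part of the marker lists in the calls was not tested.

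**Figure D4:**
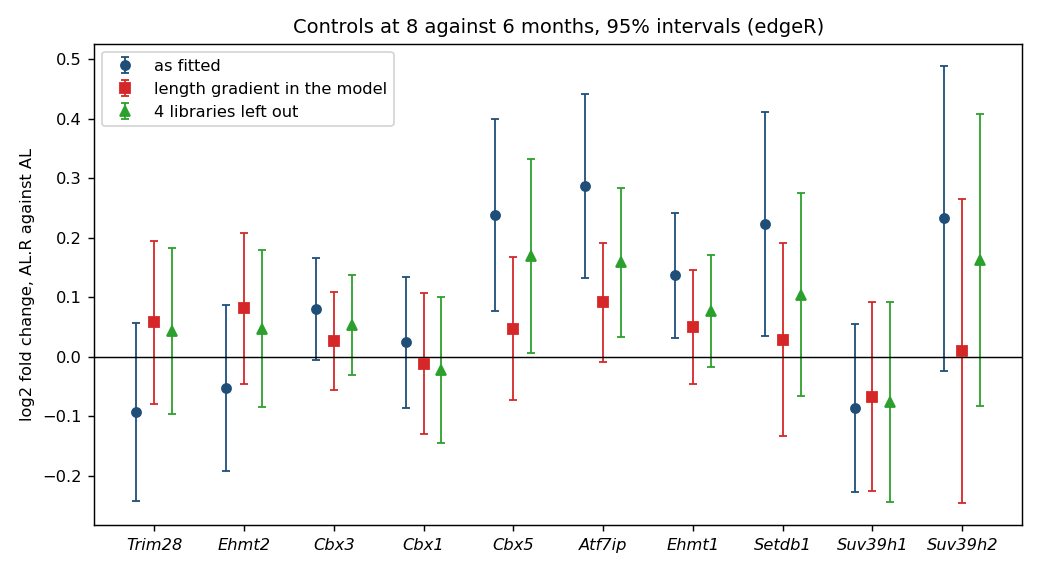
Log2 fold change of AL-R against AL for each gene with 95% intervals (edgeR), as fitted (circles), with the length gradient in the model (squares) and with 4 libraries left out (triangles). The intervals of Atf7ip and Cbx5 lie above 0 as fitted and include 0 with the gradient in the model. With 4 libraries left out they lie above 0 (0.033 to 0.284 and 0.0069 to 0.332). Those of Setdb1 and Ehmt1 lie above 0 only as fitted.

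Among the 15 libraries of the regimens, the levels of 8 of the 10 genes had an absolute Pearson r of at least 0.6 with the length gradient, as did 48.5% of all 16577 genes tested (24.3% positive, 24.2% negative). The minimum of 0.6 was set after the members' values were seen. The 8 passed an adjusted p under 0.05 by Pearson's r, and 6 did by Spearman's rho, where Ehmt1 (adjusted permutation p = 0.32) and Cbx3 (0.12) did not. The share of all genes that would pass this permutation test was not computed, so these counts are not shown to be particular to the 10. Relations were computed for 10 genes in 2 tables and adjusted over the 20, with permutation tests. The gradient is itself made from all genes, and libraries share it. Atf7ip, with a deposited length of 8235 bases, gave Pearson r = 0.936 (permutation p = 1e-05, the smallest the permutations can give, adjusted p = 0.0002, Spearman rho = 0.918, permutation p = 1e-05), and r = 0.878 when the 2 libraries of most extreme gradient were left out. Cbx5, of 8803 bases, gave r = 0.835 (permutation p = 8e-05, adjusted p = 0.0008, rho = 0.914, permutation p = 1e-05) and r = 0.813 without 2 libraries. Setdb1 gave r = 0.824 (adjusted p = 0.001 by permutation, rho = 0.793, r without 2 libraries 0.825).

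Trim28 (3245 bases) and Ehmt2 (4026 bases) had negative coefficients, although Cbx3, shorter still at 1889 bases, had a positive one. Trim28 gave r = -0.705 (permutation p = 0.0034, adjusted p = 0.012, rho = -0.746, permutation p = 0.0024) and r = -0.661 without 2 libraries. Ehmt2 gave r = -0.627 (permutation p = 0.012, adjusted p = 0.036, rho = -0.711, permutation p = 0.004) and r = -0.671 without 2 libraries. Suv39h2 gave r = 0.698 and Ehmt1 r = 0.788, with adjusted permutation p of 0.012 and 0.0026, although rho for Ehmt1 was 0.371 (permutation p = 0.17). Cbx3 gave r = 0.615 but 0.284 without 2 libraries, so its relation rests on those. Suv39h1 (r = 0.176) and Cbx1 (r = 0.144) showed none that passed the test.

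After refeeding, where the gradient spans a narrower range, 1 of 10 genes passed the adjusted threshold by Pearson's r and 0 by Spearman's rho. Here too the share of all genes that would pass was not computed. At an absolute r of at least 0.6 there were 0 of 10, against 11.2% of all genes. The gene that passed was Atf7ip (r = 0.589, permutation p = 0.021, adjusted p = 0.047, rho = 0.536, permutation p = 0.042, r without 2 libraries 0.551). Cbx5 gave r = 0.561 (permutation p = 0.029, adjusted p = 0.058), and the other 8 genes lay between -0.109 and 0.403. Trim28 and Ehmt2, negative in the first table, gave 0.183 and 0.0809 here.

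**Figure D5:**
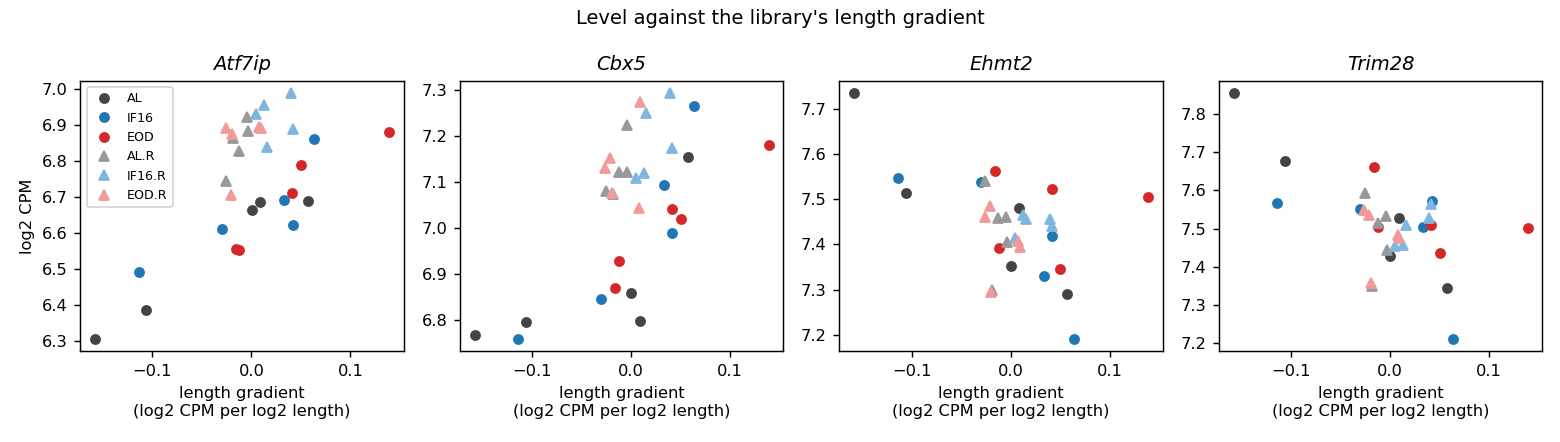
Log2 CPM (TMM-scaled within each table) of Atf7ip, Cbx5, Ehmt2 and Trim28 against the length gradient of the library, in units of log2 CPM per log2 gene length; circles are libraries of the regimens and triangles those after refeeding. Atf7ip and Cbx5 rise with the gradient among the circles (r = 0.936 and 0.835), while Ehmt2 and Trim28 fall (r = -0.627 and -0.705).

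Ehmt2 and Trim28 were the pair of the 10 with the highest correlation, of 45 pairs in 2 tables (90 relations). Over the 15 libraries of the regimens, r was 0.91 (permutation p = 1e-05, adjusted p = 0.0009, rho = 0.829, permutation p = 0.00036) and 0.77 when the 2 libraries of most extreme Ehmt2 level were left out. Over the 15 after refeeding, r was 0.912 (permutation p = 3e-05, adjusted p = 0.0013, rho = 0.743, permutation p = 0.0021) and 0.745 without 2 libraries. AL replicate 4 was highest in both genes (213 and 231 CPM), and IF16 replicate 3 lowest in both (146 and 148 CPM). With the fitted gradient taken out of both genes, a calculation added after seeing the data, r was 0.847 and 0.915. The share of all gene pairs with an r as high was not computed, so the relation is not shown to be particular to this pair.

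For Atf7ip and Cbx5, r was 0.801 in the regimens (permutation p = 0.0003, adjusted p = 0.0054, rho = 0.854, permutation p = 0.00011, r without 2 libraries 0.787) and 0.273 after refeeding (permutation p = 0.33, adjusted p = 0.52, rho = 0.189, permutation p = 0.5). With the gradient taken out, r was 0.0968 and -0.0864. Suv39h1 and Trim28 had r = 0.0259 in the regimens (permutation p = 0.93) and r = 0.786 after refeeding (permutation p = 0.00042, adjusted p = 0.0063, rho = 0.796, permutation p = 0.00071, r without 2 libraries 0.678). With group means taken out, r for Suv39h1 and Trim28 was 0.314 in the regimens and 0.795 after refeeding. For Atf7ip and Cbx5 it was 0.767 and 0.12. The difference between the tables was not tested.

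For each of the 10, the most similar other protein-coding gene was sought among 13383 genes with a mean of at least 1 CPM, by Pearson r of log2 CPM over the 30 libraries. These values are the highest of many and are given as a description. Atf7ip was most like Nfat5 (r = 0.958), Cbx5 most like the gene listed as POU2F1 (0.943), Trim28 most like Kat2a (0.917), Ehmt2 most like Lonp1 (0.897) and Suv39h1 most like Mfsd2a (0.895). Setdb1 was nearest to Ubtd2 (0.882), Ehmt1 to Igf2r (0.851), Cbx3 to Sel1l3 (0.839), Suv39h2 to Hif1an (0.784) and Cbx1 to Ppil4 (0.736). Within the 15 refed libraries alone, r was 0.878 for Mfsd2a, 0.869 for POU2F1, 0.521 for Hif1an and 0.474 for Igf2r.

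Other genes of the pathway were read from 2 lists, 22 partners and 11 demethylases. Of the partners 21 were tested, Atf7ip2 being too low. None of the 21 partners or 11 demethylases was called in the 6 comparisons of regimens or in the interactions. At an unadjusted p under 0.05 there were 0 of 21 partners and 1 of 11 demethylases in IF16 against AL, beside 9.92% of all genes, and 2 of 21 and 2 of 11 in EOD against AL, beside 14.4%. These counts are near the background, and the genes are named here after their values were seen. Kdm3a, a demethylase of mono- and dimethylated H3K9, had a log2 difference of 0.31 in IF16 (SE 0.091, adjusted p = 0.299 by edgeR) and 0.25 in EOD (SE 0.091, adjusted p = 0.314). In EOD, Phf8 had one of 0.41 (SE 0.14, adjusted p = 0.302) and the partner Lrif1 one of 0.18 (SE 0.082, adjusted p = 0.344). The partner Chaf1b had one of -0.95 in EOD (SE 0.27, adjusted p = 0.247), at very low levels, with means of 0.39 CPM in AL and 0.20 in EOD. The median log2 fold change of the demethylases was 0.14 in EOD against AL, beside -0.018 over all genes, and that of the 10 writers and readers was 0.092.

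Between the control groups, 6 of 21 partners and 5 of 11 demethylases were called higher in AL-R and 0 lower, beside 11.5% of all genes called higher and 23.9% called in either direction. Among the partners, Cdyl2, a chromodomain protein, had the smallest p (log2 fold change 0.39, SE 0.077, adjusted p = 0.00340 by edgeR), followed by Atrx, a chromatin remodeller of H3K9me3 regions (0.43, SE 0.11, adjusted p = 0.00938). Adnp, a partner of HP1, gave the largest of these values (1.03, SE 0.28, adjusted p = 0.0125), at 1.67 to 7.83 CPM in AL and 9.07 to 12.9 in AL-R. Fam208b (0.43), Zfp644 (0.29) and Pogz (0.22) were called as well. Of the demethylases, Jmjd1c (0.38, SE 0.097, adjusted p = 0.0106) and Phf2 (0.29, SE 0.086, adjusted p = 0.0202) had the smallest p, and Kdm7a (0.41), Kdm3b (0.23) and Kdm4c (0.23) were called too.

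With the length gradient in the model, 0 of 21 partners and 0 of 11 demethylases were called, beside 1.32% of all genes. Without the 4 libraries that stand apart, 2 partners (Cdyl2 and Adnp) and 0 demethylases were, beside 2.37%. Leaving out AL replicate 4 alone gave 3 partners (Cdyl2, Adnp and Atrx) and 0 demethylases, beside 4.88% of all genes. Leaving out AL replicate 5 gave the same 3 and 1 demethylase (Jmjd1c), beside 7.34%.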

How the data were processed

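RNA-seq of mouse cerebellum was read from 2 deposited tables of 15 libraries each (5 per group, 6 groups mapped by their labels). Per the file headers, the authors deposited whole-number read counts and FPKM per gene. Reads were aligned with STAR 2.5 to mm10 and counted with HTSeq 0.6.1, and DESeq2 is listed, per the submitters' processing notes; the annotation release, the use of strand and the RNA selection are not given in the sources used here. FPKM equalled counts per length and library total, to a relative difference of 4.97e-12.

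Counts were tested with edgeR 4.0.16 in R 4.3.3 (TMM, filterByExpr by group, quasi-likelihood test, Benjamini-Hochberg over all genes tested). Each table was fitted whole (16577 and 16444 genes) and both jointly (16877 genes) for AL-R against AL and the interactions. Genes were called at an adjusted p under 0.05. Standard errors came from the F statistic and intervals cover 95%. Levels of different genes were compared as FPKM only. Correlations used 100000 permutations, two-sided, over all 15 libraries of a table whatever their group. No 2 libraries of a group agreed within sampling noise. Procedures were tested on simulated data.

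Alternatives were other normalizations (RLE, upper quartile), no filter, DESeq2 1.42.0, limma-voom (limma 3.58.1), a replicate block, the length gradient or choroid plexus markers as covariates, 4 libraries left out, only the groups compared, and each library left out. The 10 genes and all lists were chosen with earlier results of these data known. Named genes were the 10, partners and demethylases called in any comparison or with the 2 smallest p of their list, the most similar gene of each of the 10, and 4 defining genes, of which 1 is not reported here. Promoters came from RefSeq GRCm38.p6, which held all 10 genes.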

Additional observations from a re-analysis of the deposited data

Results flagged for a closer look

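A library stood far from the other 4 of its group (Dixon's criterion at the 95% level) in 4 of 60 sets of gene and group; chance flags about 1 in 20. Atf7ip in EOD-R replicate 5 was at 104 CPM, with the others at 118 to 119 CPM, and the gap took 0.892 of the range. Cbx5 in AL replicate 1 was at 142 CPM against 109 to 116 CPM, a share of 0.787. Trim28 in IF16 replicate 3 was at 148 CPM against 181 to 190 CPM, a share of 0.789. Cbx3 in AL replicate 4 was at 69.8 CPM against 76.8 to 79.3 CPM, a share of 0.739. The length gradients of these libraries were -0.0211, 0.0575, 0.0636 and -0.158, in the same order of libraries as EOD-R 5, AL 1, IF16 3 and AL 4, and their part was not tested.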

How the results depend on the processing

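In the 6 comparisons of regimens and the 2 interactions, 0 of the 10 genes were called under every alternative, and over all alternatives and comparisons 35 of 1970 fits of a gene were called, all in AL-R against AL. There, 2 genes were called as fitted, 0 with the length gradient as a covariate, 1 with choroid plexus markers as a covariate (Atf7ip), 0 with 4 libraries of outlying gradient left out and 0 with only the groups compared (0.172% of all genes, log2 differences 0.29 and 0.24); leaving out each library in turn gave 0 to 4. The cause was not tested. The remaining alternatives gave 2 or 3. With the replicate number as a block the count was 2, and 0 in each other comparison. Same-numbered libraries correlated at -0.534 to 0.322 in the regimens, where 0 of 15 libraries correlated best with their own number. After refeeding they correlated at -0.0545 to 0.427, and 7 of 15 libraries correlated best with their own number. The median after refeeding was 0.104, against -0.0415 for libraries of different number. Whether the numbers pair the libraries was not tested.

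Counts over all genes depended more on the settings. They were 8 (3 to 94, highest with DESeq2) in IF16 against AL, 11 (2 to 133, DESeq2) in EOD against AL, 0 (0 to 1) in EOD against IF16, 28 (0 to 105) in IF16-R against AL-R, 7 (0 to 87) in EOD-R against AL-R, 3 (0 to 123) in EOD-R against IF16-R, 8 (4 to 36) and 2 (0 to 14) in the interactions of IF16 and EOD, and 4030 in AL-R against AL (28 with only the groups compared to 6173 without AL replicate 1). Depth was lowest for Suv39h2, at 95 to 166 counts a library.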

Other observations

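The summed FPKM of the 5 methyltransferase genes was nearly level over the 6 groups, at 69.3 ± 2.91 (SD, n = 5) for AL, 69.9 ± 2.32 for IF16 and 71.2 ± 2.39 for EOD at the end of the regimens, and 70.4 ± 3.42, 70.0 ± 0.864 and 69.4 ± 2.66 for the same diets after refeeding. Ehmt2 makes up most of this sum. The summed FPKM of Cbx1, Cbx3 and Cbx5 was 85.7 ± 6.00 in AL, 90.3 ± 5.07 in IF16 and 86.9 ± 1.62 in EOD, and 91.6 ± 1.95, 94.98 ± 2.31 and 95.7 ± 2.85 for the same diets after refeeding. The ratio of Suv39h1 to Suv39h2 was 7.43 ± 0.868 in AL, 7.85 ± 1.83 in IF16 and 8.23 ± 1.11 in EOD, and 5.91 ± 0.504, 6.05 ± 0.630 and 5.90 ± 1.05 after refeeding. These values carry no test.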
